A study of Mus musculus with 2 samples.

Results

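The 8 genes described here encode the isozymes of 3 early steps of glycolysis: the hexokinases Hk1, Hk2 and Hk3, the phosphofructokinases Pfkl, Pfkm and Pfkp, and the aldolases Aldoa and Aldoc. They were taken by their gene symbols from the deposited expression tables, in which all 8 were listed among 22558 genes. RNA was sequenced from untreated cells of mouse breast tumours (strain FVB, inbred) that were sorted by flow cytometry as soon as the tissue was dissociated. One library was made from tumour-initiating cells (TIC) and 1 from non-tumorigenic cells (NTC), each from 15 ng of total RNA that was amplified to cDNA. For the age of the mice, the tumour model, the sorting markers and the number of tumours behind each library, the sources used here give nothing. With 1 library per group there is no replicate, and every difference below is between these 2 libraries, with no test and no SD. In whole-fraction RNA, fewer cells with a transcript and less transcript per cell cannot be told apart.

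Hexokinase phosphorylates glucose and so traps it in the cell. Phosphofructokinase adds the next phosphate and commits the sugar to glycolysis, and aldolase splits the resulting fructose bisphosphate into the triose phosphates of the lower pathway. Each enzyme has isozymes from separate genes, and tissues are known for their mixtures of them. Hk1 is the hexokinase of most tissues and of the brain, Hk2 is that of insulin-responsive tissues and is often raised in tumours, and Hk3 is known from white blood cells. Pfkl, Pfkm and Pfkp are named for liver, muscle and platelets, and their products join into mixed tetramers. Aldoa is the aldolase of muscle and of most other tissues, and Aldoc is best known from brain. The title of the series names metabolic properties of tumour-initiating cells as its subject, and the mixture of isozyme transcripts in each library is what these genes can be asked about. All levels and shares below are of RNA, and neither protein nor enzyme activity was measured.

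Isozymes can be told apart only where their transcripts differ in sequence, so the reference transcripts (GENCODE M21, build GRCm38) were compared first. The coding sequences of Aldoa and Aldoc were identical at 75.9% of aligned bases, and their longest shared run was 26 bases. The following 60 bases, coding positions 503 to 562 counted from the start codon, are centred on that run and are shown for the aldolases and for the retrogenes Aldoart1 and Aldoart2, intronless copies of Aldoa. Capitals mark bases that differ from Aldoa.
Aldoa: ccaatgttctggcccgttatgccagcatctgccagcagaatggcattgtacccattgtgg
Aldoc: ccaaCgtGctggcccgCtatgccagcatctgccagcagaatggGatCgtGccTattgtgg
Aldoart1: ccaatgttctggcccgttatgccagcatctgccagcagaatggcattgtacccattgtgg
Aldoart2: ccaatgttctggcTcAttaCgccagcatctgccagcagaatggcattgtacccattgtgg
Aldoc differed from Aldoa at 7 of the 60 positions, Aldoart2 at 3 and Aldoart1 at 0. The coding sequences of Aldoart1 and Aldoart2 were 94.2% and 91.6% identical to that of Aldoa, with runs of up to 86 identical bases in Aldoart1. Among the hexokinases identity was 71.6% for Hk1 and Hk2, 62.7% for Hk1 and Hk3 and 65.3% for Hk2 and Hk3. Among the phosphofructokinases it was 70.7% for Pfkl and Pfkm, 68.2% for Pfkl and Pfkp and 69.3% for Pfkm and Pfkp. The longest run shared by any hexokinase or phosphofructokinase pair was 27 bases, in Hk1 and Hk2.

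Stretches of 50 bases of 1 reference transcript per gene were then looked up on both strands in the transcripts of every other gene, a length chosen here because the sources give no read length. None of the 8 transcripts shared such a stretch with another of the 8. The transcripts used for Hk1, Hk2, Hk3, Pfkm and Aldoc shared none with any gene of that reference, and that of Pfkl shared 2 of 3681. The gene 2210417K05Rik, listed at the locus of Hk1, was not found in that reference under this symbol. Hk3 and its neighbour Unc5a overlap by 34 bases, which is too short for a stretch of 50 bases to show. The Pfkm transcript used, Pfkm-201, starts downstream of the part of the gene that overlaps Senp1. Aldoa shared 203 of 1462 stretches (13.9%) with other genes. Of these, 94 were also in Aldoart1, 52 in the predicted gene Gm5276 and 40 in the predicted gene Gm7556, and a stretch can be in several of them. Aldoart1 was listed at 17.3 FPKM in TIC and 16.2 FPKM in NTC, and Aldoart2 at 5.82 and 4.88 FPKM. FPKM is the number of sequenced fragments divided by transcript length and by the fragments that mapped in that library. Levels of different genes can thus be compared within a library only as far as the assumed lengths hold and amplification treated transcripts alike. The lengths used are not stated, and the effect of amplification was not measured. How reads shared by Aldoa and its copies were assigned is not stated, so the level of Aldoa is uncertain to an extent that was not measured. Pfkp shared 699 of 4096 stretches (17.1%) with Pitrm1, a protease gene on the opposite strand whose end overlaps that of Pfkp by 748 bases. Without strand information, fragments from that overlap cannot be assigned to either gene.

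Depth could be estimated only roughly. Low values of short receptor genes, multiplied by locus length in kb and taken from 1 window for both libraries, had medians of 0.0476 in TIC and 0.0463 in NTC. Read as the worth of 1 read, these give 20995000 and 21610000 fragments. Only values inside the window were used, so it bounds both estimates and partly sets their likeness. The labels name no lineage, but lineage markers separated the libraries. All 8 basal mammary markers were at least 2-fold higher in TIC, summing to 3732 FPKM against 39.9 FPKM (highest Acta2, smooth muscle actin, in TIC and Krt14, a basal keratin, in NTC). All 8 luminal markers were at least 2-fold lower in TIC, summing to 26.1 FPKM against 3584 FPKM (highest the keratins Krt8 in TIC and Krt19 in NTC). The 6 fibroblast markers summed to 171.4 FPKM in TIC and 2.37 FPKM in NTC. Dcn, a matrix proteoglycan, had 151.8 against 1.51 FPKM, the collagen gene Col1a2 had 9.56 against 0.0119, and the receptor gene Pdgfra had 8.83 against 0.513. The other fibroblast collagens were low in both, with Col1a1 at 0.459 and 0.339 FPKM and Col3a1 at 0.221 and 0 FPKM, and Lum was at 0.573 and 0 FPKM. The markers of lymphocytes summed to at most 0.0801 FPKM in either library (highest Cd79a), and those of adipocytes to at most 0.131 FPKM (Lep in TIC, Fabp4 in NTC). Endothelial markers summed to 2.87 FPKM in TIC (highest Kdr) and 0.237 FPKM in NTC (highest Pecam1). Erythroid markers summed to 0.518 FPKM in TIC (highest Alas2) and 6.20 FPKM in NTC (highest Hba-a1). The part of the basal and luminal difference, and of other cell types, in the isozyme values was not tested.

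**Figure D1:**
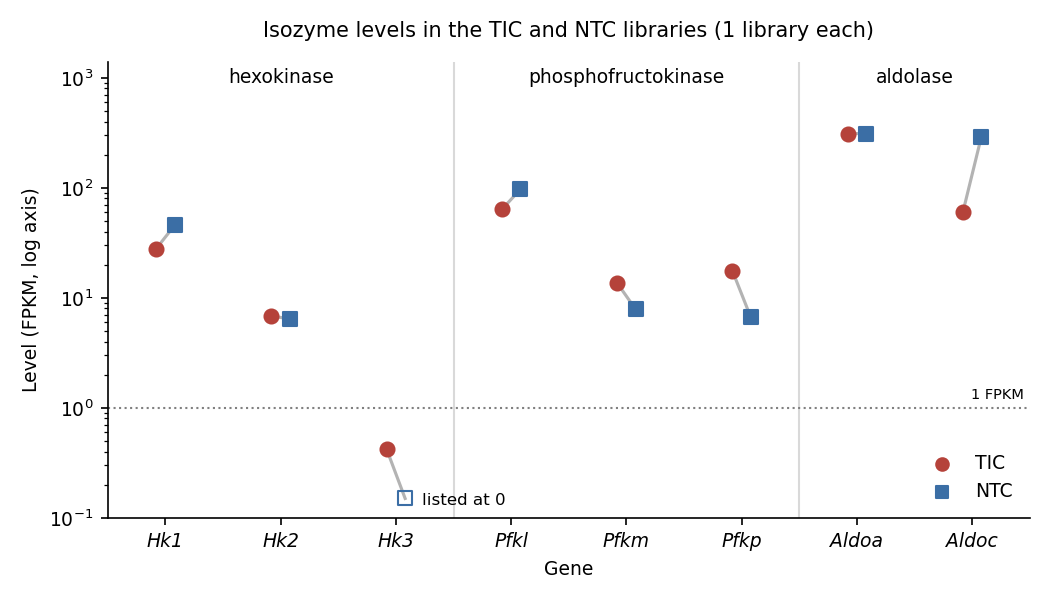
Level of each isozyme gene in FPKM on a log axis, with a red circle for the TIC library and a blue square for the NTC library (1 library each, no error bars). Aldoa lies at the same height in both libraries, Aldoc, Hk1 and Pfkl are higher in NTC, and Pfkp and Pfkm are higher in TIC; the open square marks Hk3, listed at 0 in NTC.

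Aldoc had the widest difference of the 8 genes. It stood at 60.2 FPKM in TIC and 291.0 FPKM in NTC (chromosome 11, 78137700 to 78140262, build mm9), while Aldoa stood at 311.5 FPKM in both (chromosome 7, 133938748 to 133943961). In NTC the aldolases were therefore nearly equal, and in TIC Aldoa was far above Aldoc. On the log2 scale with a pseudocount of 1 FPKM, the ratio of TIC to NTC was -2.25 for Aldoc, a difference of 4.77-fold. The ratio of Aldoa was -0.00028, and it turned to 0.16 when the ratios were centred on the median gene and to 0.18 when both libraries were rescaled to one sum. A lower ratio than that of Aldoc was found for 4.04% of 12004 measured genes, where measured means averaging 1 FPKM or more over the libraries. The median gene lay at -0.16, so each ratio here is that much higher relative to the median gene.

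The aldolase pool was accordingly of different make-up in the 2 libraries. Aldoc made up 16.2% of the summed aldolase FPKM in TIC and 48.3% in NTC, a difference of 32.1 percentage points. There were 5.17 Aldoa transcripts per Aldoc transcript in TIC and 1.07 in NTC, as FPKM ratios. Such a ratio within 1 library does not depend on how libraries are scaled to each other. Summed over both genes, aldolase stood at 371.7 FPKM in TIC and 602.6 FPKM in NTC, and nearly all of that gap was in Aldoc. Adding the retrogenes to Aldoa gave Aldoc shares of 15.3% and 46.7%. The listed locus of Aldoc spans 2563 bases, close to the 2561 bases of the genome that its reference transcript Aldoc-202 spans. RefSeq also lists an upstream start, at base 78323073 in GRCm38. The listed locus is too short to reach from there to the end of Aldoc-202, at base 78326760. Whether fragments from such a form are counted in these values is not known. Markers of nervous tissue, where Aldoc is known as an isozyme, summed to 11.7 FPKM in TIC and 12.5 FPKM in NTC. The myelin gene Mbp led the list with 6.47 and 11.5 FPKM, Rbfox3, a neuronal splicing factor gene, was higher in TIC (2.04 against 0.328), and Syt1 and Mog were listed at 0 in both.

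Phosphofructokinase RNA was mostly of the liver type in both libraries, and the minor isozymes held a larger share in TIC. Pfkl had 63.7 FPKM in TIC and 97.0 FPKM in NTC (chromosome 10, 77449694 to 77472541), Pfkp had 17.6 and 6.63 FPKM, and Pfkm had 13.6 and 7.86 FPKM. Pfkl was thus lower in TIC and the other two were higher. Their log2 ratios were -0.60, 1.28 and 0.72 in that order. The ratio of Pfkp, 2.44-fold on the scale with the pseudocount, exceeded those of 87.7% of measured genes. It was below 2-fold with a pseudocount of 5 FPKM (log2 ratio 0.96).

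In shares, Pfkl made up 67.1% of phosphofructokinase FPKM in TIC and 87.0% in NTC, Pfkp 18.5% and 5.95%, and Pfkm 14.4% and 7.05%. Between the minor isozymes there were 1.29 Pfkp per Pfkm in TIC and 0.844 in NTC. That order depends on the basis. FPKM multiplied by transcript length gives shares of fragments, in which a longer transcript such as that of Pfkp weighs more. On that basis Pfkp was above Pfkm in both libraries (20.8% against 11.2% in TIC and 6.67% against 5.49% in NTC). Pfkl exceeded Pfkp by 3.62 times in TIC and 14.6 times in NTC, a 4.04-fold difference between the libraries. The sum over the family was closer, at 94.9 FPKM in TIC against 111.5 FPKM in NTC. As a measure of evenness, the inverse of the summed squared shares counts how many isozymes of equal FPKM would give the same value. It was 1.98 for phosphofructokinase in TIC and 1.31 in NTC, whereas for aldolase it was 1.37 in TIC and 2.0 in NTC.

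Both minor phosphofructokinases share their listed locus with a neighbour. Pfkp (chromosome 13, 6547403 to 6647970) is listed with Pitrm1, which had 22.5 FPKM in TIC and 26.8 FPKM in NTC. Pfkm (chromosome 15, 97869175 to 97962878) is listed with Senp1, a protease gene of the SUMO pathway that overlaps the start of the Pfkm gene by 1156 bases, on the opposite strand, in GRCm38 and that had 9.65 FPKM in TIC and 15.4 FPKM in NTC. The part of the neighbours in the values of Pfkp and Pfkm was not tested. Markers of skeletal muscle, where Pfkm and Aldoa are the known isozymes, summed to 2.55 FPKM in TIC and 9.15 FPKM in NTC, nearly all of it Mb (2.47 and 8.13 FPKM), with Ckm at 0 and 0.142 FPKM.

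**Figure D2:**
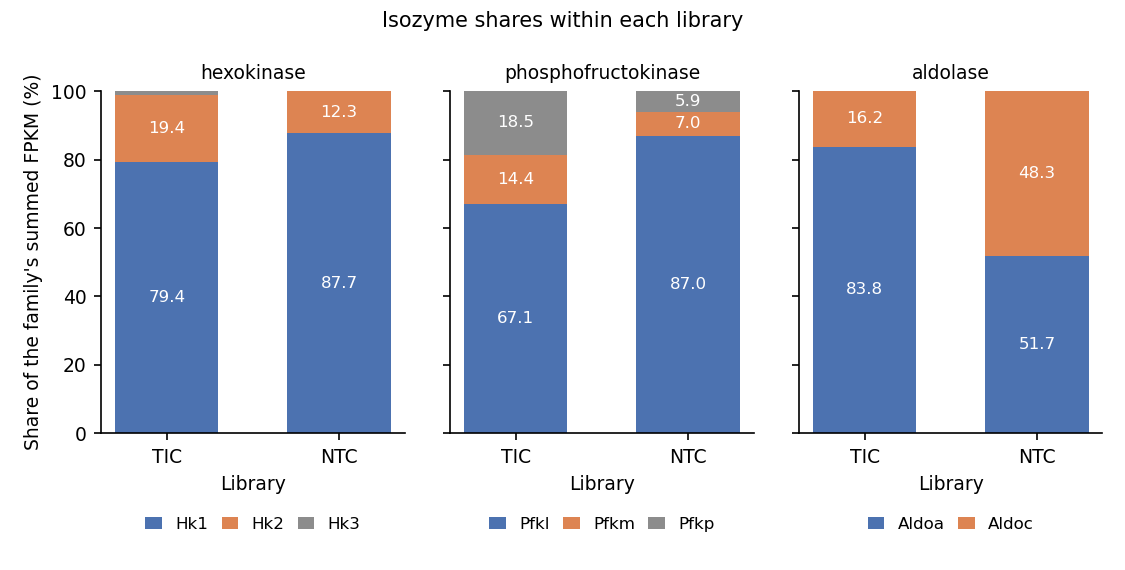
Share of each isozyme in the summed FPKM of its family, in percent, for the TIC and the NTC library. The hexokinase and phosphofructokinase pools hold more of the main isozyme in NTC (87.7% Hk1 and 87.0% Pfkl), and the aldolase pool holds more of it in TIC (83.8% Aldoa).

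Hexokinase RNA was mostly Hk1 in both libraries. Hk1 had 28.0 FPKM in TIC and 45.6 FPKM in NTC (chromosome 10, 61731603 to 61842656), and Hk2 had 6.86 and 6.41 FPKM (chromosome 6, 82675021 to 82724448). The log2 ratio of Hk1 was -0.69, or 1.61-fold lower in TIC, and that of Hk2 was 0.08. The listed locus of Hk1 is also that of 2210417K05Rik, which had 1.06 FPKM in TIC and 3.78 FPKM in NTC. This neighbour was thus lower in TIC, as Hk1 was, and its part in the Hk1 value was not tested. Hk1 made up 79.4% of hexokinase FPKM in TIC and 87.7% in NTC, and Hk2 made up 19.4% and 12.3%. The Hk2 share therefore differed by 7.12 percentage points at a nearly equal Hk2 level. There were 4.08 Hk1 per Hk2 in TIC and 7.11 in NTC, and the family summed to 35.3 and 52.0 FPKM.

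Hk3 was the rarest of the 8 genes, at 0.419 FPKM in TIC, where it was 1.19% of hexokinase FPKM, and listed at 0 in NTC. By the rough depth estimate, the TIC value corresponds to about 28 reads. An exact 0 in the deposited values can be a failed estimate, so no fold is given. Hk3 (chromosome 13, 55050793 to 55122746) is listed in one locus with Unc5a, a netrin receptor gene whose end overlaps the end of Hk3 by 34 bases in GRCm38. Unc5a had 11.3 FPKM in TIC and 0.0186 FPKM in NTC, so the neighbour differed in the same direction as Hk3, and its part in the Hk3 value was not tested. Myeloid cells are known for Hk3, and their part in its value was not tested. Of 10 myeloid markers 4 were listed at 0 in both libraries, among them the pan-leukocyte gene Ptprc. The list summed to 2.55 FPKM in TIC, led by Lyz2, and to 7.34 FPKM in NTC, led by S100a8. The NTC sum was mostly S100a8 (0 FPKM in TIC, 5.11 FPKM in NTC), while S100a9 was listed at 0 in both. Of the 3 measured markers, Lyz2 was higher in TIC (1.56 against 0.727 FPKM), and S100a8 and Cd68 were lower (Cd68 0.828 against 1.38). Hkdc1, a hexokinase-like gene that lies 3228 bases beyond Hk1 on chromosome 10, was listed at 0 in both.

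Set beside the rest of the transcriptome, the count of isozyme genes past 2-fold was close to the background. Of the 7 that were measured (Hk3 was too low), 1 was at least 2-fold higher in TIC (Pfkp), where 14.6% of all measured genes were, and 1 was at least 2-fold lower (Aldoc), against 13.8%. In either direction that is 2 of 7, and 28.4% of the 12004 measured genes differed by as much. The median log2 ratio of the 7 was -0.00028, that of Aldoa, with the change of sign under other scalings given above, and the median of all measured genes was -0.16. By level, Aldoa exceeded 99.0% of measured genes in TIC and 98.9% in NTC, and Aldoc exceeded 91.8% and 98.8%. Pfkp exceeded 66.9% in TIC and 34.7% in NTC, and Pfkm 59.0% and 39.3%. For Hk2 the places were 36.9% and 33.9%, for Hk1 79.2% and 87.4%, and for Pfkl 92.4% and 95.3%.

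**Figure D3:**
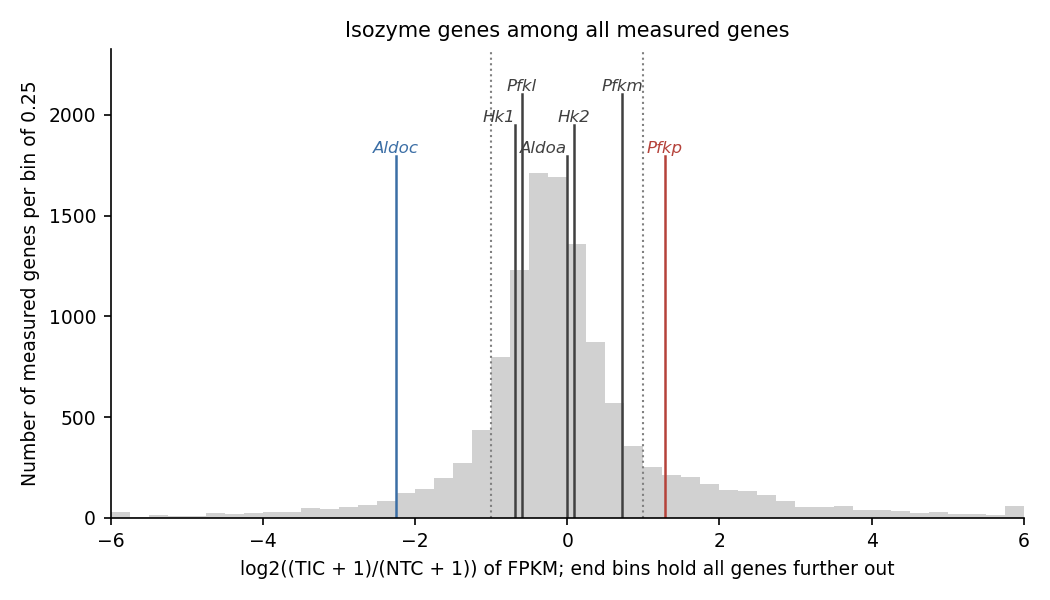
Number of measured genes (grey bars) by log2 ratio of TIC to NTC in bins of 0.25, with a line at the ratio of each isozyme gene and dotted lines at 2-fold. Of the isozyme genes, Aldoc (-2.25) and Pfkp (1.28) lie outside the dotted lines.

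Proportions between the 3 steps were set beside those between isozymes. For each hexokinase transcript there were 2.69 of phosphofructokinase in TIC and 2.14 in NTC, and 10.5 and 11.6 of aldolase. Between the libraries these proportions differed 1.26-fold and 1.10-fold, and aldolase per phosphofructokinase (3.92 against 5.40) differed 1.38-fold. Aldoa per Aldoc differed 4.83-fold, Pfkl per Pfkp 4.04-fold, Pfkl per Pfkm 2.64-fold, Hk1 per Hk2 1.74-fold and Pfkp per Pfkm 1.53-fold.

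The other enzymes from glucose to lactate were listed with 17 genes. Of these, 10 were measured, of which 1 passed 2-fold toward TIC and 1 toward NTC, a count near the 28.4% of all measured genes that passed in either direction. Their median log2 ratio was 0.12. Higher in TIC were the enolase Eno1 (21.8 against 6.73 FPKM), the phosphoglycerate mutase Pgam1 (192.3 against 125.9), the pyruvate kinase Pkm2 (262.1 against 191.7) and the phosphoglycerate kinase Pgk1 (84.9 against 75.3). Lower were the lactate dehydrogenase Ldhb (46.0 against 107.3 FPKM), Eno3, the muscle enolase (1.25 against 3.31), the triose phosphate isomerase Tpi1 (84.3 against 112.1) and Ldha (444.1 against 484.6). Near-identical copies of these genes were not examined, and values of genes that have them are uncertain. The enolase isozymes lay on opposite sides, with log2 ratios of 1.56 for Eno1 and -0.94 for Eno3. Both lactate dehydrogenases were lower in TIC, Ldhb at -1.20 and Ldha at -0.13, and the value of Ldha is smaller in size than the shift of the median gene.

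**Figure D4:**
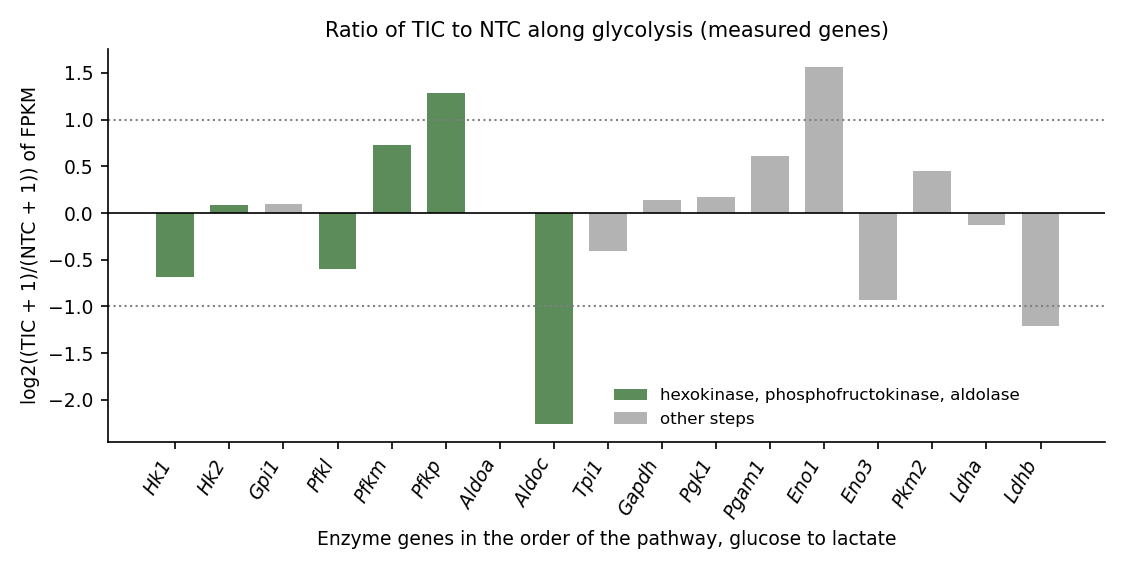
Log2 ratio of TIC to NTC, on the scale of FPKM with a pseudocount of 1, for the 17 measured glycolytic genes in pathway order, with green bars for the isozymes described here and grey bars for the other steps. Dotted lines mark 2-fold, which Pfkp and Eno1 pass upward and Aldoc and Ldhb pass downward.

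Phosphofructokinase is switched on by fructose 2,6-bisphosphate, which the Pfkfb enzymes make and remove. Of a list of 7 regulators and related kinases, 4 were measured and 1 was at least 2-fold higher in TIC, Pfkfb3, the form with the strongest kinase activity, at 19.5 against 9.07 FPKM. The share of all measured genes that were as much higher was 14.6%, and with a pseudocount of 5 FPKM 0 of these genes passed 2-fold. Pfkfb2, the heart form, had 5.50 against 10.2 FPKM. 9630033F20Rik, the earlier symbol of Tigar, which lowers fructose 2,6-bisphosphate, had 1.60 against 1.01 FPKM, and the ADP-dependent sugar kinase Adpgk had 15.8 against 13.9. Of the enzymes that reverse the hexokinase and phosphofructokinase steps, the glucose 6-phosphatase G6pc3 had 31.1 against 45.4 FPKM. Fbp2 and G6pc, and also Pck1 of gluconeogenesis, were listed at 0 in both libraries and Fbp1, a fructose bisphosphatase, had 0.120 FPKM in TIC and 0.306 in NTC. In the list of 17 reverse and side enzymes, 12 were measured, 1 passed 2-fold toward TIC and 2 toward NTC, and the median was -0.19. These counts lie near the shares over all measured genes, 14.6% toward TIC and 13.8% toward NTC. With a pseudocount of 5 FPKM, 0 passed in either direction, and centring on the median gene left 0 toward NTC. On the higher side were Gfpt2, which draws fructose 6-phosphate into hexosamines (5.34 against 2.05 FPKM), the fructose kinase Khk (8.81 against 4.80) and Gfpt1 (38.5 against 30.3). On the lower side were Sord, sorbitol dehydrogenase (4.15 against 10.04 FPKM), the mitochondrial Pck2 (11.2 against 24.8), G6pdx, the entry to the pentose phosphate pathway (26.0 against 47.7), and Mpi, mannose phosphate isomerase (6.48 against 11.0).

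The sequences before the transcription starts of the 2 genes past 2-fold are shown because these genes carry the widest differences in each direction. They are from RefSeq, build GRCm38.p6, 250 bases up to the base before the start, 5′ to 3′ on the strand of the gene, and capitals mark the GC box GGGCGG on either strand. For Pfkp the minus strand of chr13:6648772-6649021 is shown, and for Aldoc the plus strand of chr11:78323948-78324197, before the start nearest to that of Aldoc-202.
Pfkp: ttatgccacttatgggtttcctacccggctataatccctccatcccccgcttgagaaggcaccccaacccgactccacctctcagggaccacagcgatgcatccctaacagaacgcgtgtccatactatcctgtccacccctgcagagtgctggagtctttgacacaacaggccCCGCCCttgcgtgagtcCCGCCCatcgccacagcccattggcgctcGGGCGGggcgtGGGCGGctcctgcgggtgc
Aldoc: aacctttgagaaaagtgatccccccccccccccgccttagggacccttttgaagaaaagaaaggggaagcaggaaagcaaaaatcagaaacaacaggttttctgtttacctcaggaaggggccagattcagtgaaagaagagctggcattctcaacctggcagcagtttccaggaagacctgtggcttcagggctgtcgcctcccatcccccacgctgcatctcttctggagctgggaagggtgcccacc
The Pfkp stretch holds 4 GC boxes and 16 CG dinucleotides, and the Aldoc stretch holds 0 and 3. Of 32851 such stretches in RefSeq, 32.7% hold a GC box, and their median number of CG dinucleotides is 6. RefSeq lists 15 starts for the 8 genes, and a GC box was found before 5 of them, in Hk2, Pfkp, Aldoa and Aldoc, the last at its upstream start. The core ACGTG of the hypoxia response element, searched on both strands and part of the E-box CACGTG, was found before 6 starts, in Hk2, Hk3, Pfkm and Aldoa, against 16.6% of all stretches, and CACGTG itself before 1, in Pfkm, against 6.02%. Some of these stretches overlap, those before a pair of Aldoa starts among them, so that 1 match can count at more than 1 start, and the shares over all stretches are no test of these counts. A match describes the letters only, and which start was in use was not measured here.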

How the data were processed

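RNA was sequenced from 1 TIC and 1 NTC library, grouped by the sample descriptions. The authors deposited 1 FPKM value for each gene and library. In the submitters' processing notes stand build mm9 and the tools Cufflinks, Cuffdiff, TopHat 1.4.0 and CASAVA 1.8.2, without roles. The heading of the loci gives a human build, although they belong to mouse genes. Of 19942 symbols also in RefSeq's GRCm38 on the same chromosome, 11 starts were equal and 197 were 1 below, so 1 was added to each start. No count model or test was used.

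Ratios were log2((TIC + 1)/(NTC + 1)), and shares were of the family's summed FPKM within a library. A gene is called measured where its FPKM averaged 1 or more. Depth was taken from receptor genes with a locus under 1.5 kb as the median of FPKM times kb between 0.035 and 0.065 (23 genes in TIC, 39 in NTC), which covers counting only. All 8 isozyme genes are named, with up to 4 genes per direction of each pathway list and the highest gene of each marker list; others were chosen after their values were seen, and some genes of the lists are not reported here. The genes and lists were chosen with earlier results of these data known. The ratio rule was tested on simulated data. That simulation held counting noise only, and its planted changes were all well past 2-fold. It therefore does not cover variation between samples or from amplification, or changes near 2-fold. Python 3.11.15, pandas 2.3.3, numpy 2.4.6, Biopython 1.88 (global alignment) and matplotlib 3.10.9 were used. Alternatives were pseudocounts of 0.1 and 5 FPKM, other filters, centring on the median gene, rescaling to a sum of 1000000, and other bases for the shares.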

Additional observations from a re-analysis of the deposited data

How the results depend on the processing

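No replicate could be left out and no paired analysis was possible because each group has 1 library. All 8 isozyme shares kept the direction of their difference between the libraries under each basis tried. Weighted by transcript length, the shares in TIC and NTC were 73.4% and 83.2% for Hk1, 25.7% and 16.8% for Hk2, 11.2% and 5.49% for Pfkm, 82.1% and 48.8% for Aldoa and 17.9% and 51.2% for Aldoc, and 20.8% for Pfkp in TIC. With 1 FPKM added to each gene they were 75.8% and 84.7% for Hk1, 20.5% and 13.5% for Hk2, 3.71% and 1.82% for Hk3, and 66.1% and 85.6% for Pfkl. Adding the retrogenes to Aldoa, a choice made after seeing the data, gave 53.3% Aldoa and 46.7% Aldoc in NTC. The other 25 of 46 shares moved by less than 1 point.

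Of 28 ratios under other settings 25 kept their direction and their side of 2-fold. Aldoa turned to 0.16 when centred on the median gene and 0.18 when rescaled to a common sum, which shift every ratio by construction. With a pseudocount of 5 FPKM, Pfkp fell to 0.96, which left 0 isozyme genes higher, 0 regulators higher and 0 reverse and side enzymes in each direction, and 1086 of all genes higher and 921 lower. With a pseudocount of 0.1 FPKM or rescaling, 2 glycolytic genes were lower (Eno3 with Ldhb). Among the reverse and side enzymes, 0 were lower after centring and 1 after rescaling, 2 were higher with no filter, and 0 were higher at a mean of at least 5 FPKM, where 1108 of all genes were. The causes were not tested. Depth limits Hk3 most, at about 28 reads in TIC by the rough depth estimate.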
